A study of Mus musculus with 35 samples.

Results

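At least 2 p50 region lists held 997 genomic regions. Of these, 291 (29.2%) lay outside every region up to 10 kb wide listed for acetylated histone H4 (H4ac). These 291 regions are described here. They were chosen by measured values. The regions up to 10 kb wide of the 7 p50 lists were joined where they overlapped by at least 1 bp, joined regions held by at least 2 lists were kept, and the 291 were those that touched no region up to 10 kb wide in any of the 8 H4ac lists. The other 706 regions touched at least 1 such H4ac region and are called regions inside H4ac. Presence or absence of p50 and H4ac at the members is therefore a description. The rule did not use the condition of a p50 list, the scores or the lists of other targets, and the tests below are on those.

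The data came from chromatin immunoprecipitation with sequencing (ChIP-seq) of 6 targets in 35 libraries of primary macrophages, grown from bone marrow of wild type female C57BL/6 mice aged 8 to 12 weeks. The 7 p50 libraries comprised 3 of unstimulated cells (letters A, C and D in the titles) and 4 of cells given lipopolysaccharide (LPS), which Gram-negative bacteria carry on their surface and macrophages sense through the receptor TLR4, for 60 min (A, B, C and D). The H4ac libraries comprised 2 each of unstimulated cells and of cells at 60, 120 and 240 min of LPS. The targets not used to choose the regions were p65 (unstimulated, 60 and 120 min, 5 libraries), the transcription factor ATF3 (240 min, 3 libraries), RNA polymerase II (Pol II, unstimulated and 60 to 360 min, 7 libraries) and histone H3 trimethylated at lysine 27 (H3K27me3, 5 libraries: unstimulated, 120, 240 and 480 min, and 1 titled 60 min with a 7 h delay). Nothing in the labels ties replicates to separate animals or cultures, so the p-values cover only how far the libraries spread, and that spread may be technical. Where a list lacks a region, the region counts as not listed rather than as unbound. Since the lists come from populations of cells, binding in fewer cells and weaker binding per cell cannot be told apart.

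p50 is the processed product of the gene Nfkb1 and 1 of the DNA-binding subunits of NF-κB. As a dimer with p65 (RelA), which carries a transactivation domain, it activates inflammatory genes after LPS releases the dimer from its cytoplasmic inhibitors. As a homodimer, without a transactivation domain of its own, p50 can occupy κB sites in resting macrophages and hold genes down. Acetylation of histone H4 marks open and active promoters and enhancers, Pol II marks transcribed or poised genes, and H3K27me3 is laid down by the Polycomb complex PRC2 over silent genes.

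The label "outside acetylated chromatin" held in part. The H4ac lists were nested, with narrow regions lying within wider ones, and 87 of the 291 regions (29.9%) touched an H4ac region 10 to 100 kb wide, 58 of them in at least 2 lists. H4ac regions wider than 100 kb touched 184 members (63.2%), against 633 of 706 (89.7%) inside H4ac. The widest H4ac region of each list spanned 17701750 to 123415570 bp. A touch of H4ac wider than 100 kb therefore need not mean acetylation near the member, here or at the regions named below. With such regions counted, 92 members (31.6%) touched no H4ac region of any width. Among the regions inside H4ac, 549 of 706 (77.8%) touched an H4ac region 10 to 100 kb wide. The members are therefore best read as p50 regions without a narrow H4ac region.

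The distance from a member to the nearest narrow H4ac region had a median of 16580 bp (interquartile range 3990 to 73165 bp). The members just outside the line were the 6 that abutted an H4ac region and the other 25 that lay within 1 kb of one. Far from it, 173 lay more than 10 kb away, 58 more than 100 kb and 8 more than 1 Mb. The farthest was chr10:102198131-102198270 (all coordinates are of build mm9), 2146370 bp from H4ac and held by 2 LPS lists. Just inside the line, 52 of the 706 regions inside H4ac were covered by H4ac over less than 50% of their length, and the smallest overlap was 10 bp, whereas 590 were wholly covered.

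**Figure D1:**
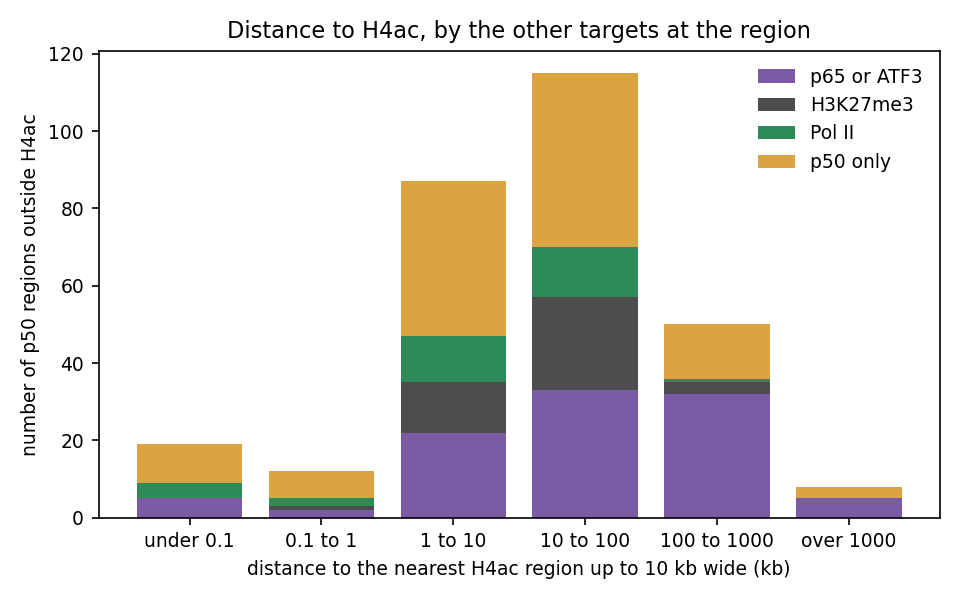
Number of the 291 p50 regions outside H4ac (y axis) by distance to the nearest H4ac region up to 10 kb wide (x axis, kb, bins on a log scale). Colours divide the bars by the first of p65 or ATF3, H3K27me3 and Pol II whose lists touched the region, in that order; 115 regions lay 10 to 100 kb away, and 37 of the 58 beyond 100 kb were in p65 or ATF3 lists.

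The members were mostly narrow and held by few lists. Their joined width had a median of 210 bp (range 110 to 9990), against 305 bp inside H4ac, and 230 of 291 were up to 500 bp wide, against 445 of 706. Of the 291, 153 were held by 2 p50 lists, 84 by 3, 24 by 4, 15 by 5, 9 by 6 and 6 by all 7. The share outside H4ac was 59.9% among the 1481 joined regions of a single list, which the choice left out, 35.6% among those of 2 lists and 13.6% among the 44 regions of all 7 lists. In these lists, p50 regions found again and again thus lay outside H4ac less often, as a description of the lists that chose them.

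Within each p50 list, members ranked below the regions inside H4ac by the authors' deposited score. A percentile of 100 is the best-scored region of a list among those up to 10 kb wide. A joined region that held several regions of a list took the best of their percentiles. The median percentile outside against inside H4ac was 46.9 against 64.7 in unstimulated A, 50.9 against 70.6 in unstimulated C and 60.7 against 74.0 in unstimulated D. With LPS it was 53.7 against 69.6 in A, 60.5 against 66.9 in B, 53.0 against 69.8 in C and 56.6 against 64.0 in D. The members were lower in 7 of 7 lists, by 13.9 percentile points on average (exact two-sided sign-flip permutation test over 7 libraries, p = 0.0156, the smallest 7 libraries allow, and 0.0469 after Benjamini-Hochberg adjustment over the 6 tests made). This difference moved with width and with the p65 and ATF3 lists: it was -3.39 points (exact p = 0.375) among regions up to 500 bp wide and -5.62 points (exact p = 0.0781) without the regions in any p65 or ATF3 list, both settings chosen after seeing the data. With the width limit of p50 and H4ac set to 1 kb it was -2.02 points (exact p = 0.266), and with at least 50% cover by H4ac required of the regions inside it was -4.57 points (exact p = 0.0938).

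**Figure D2:**
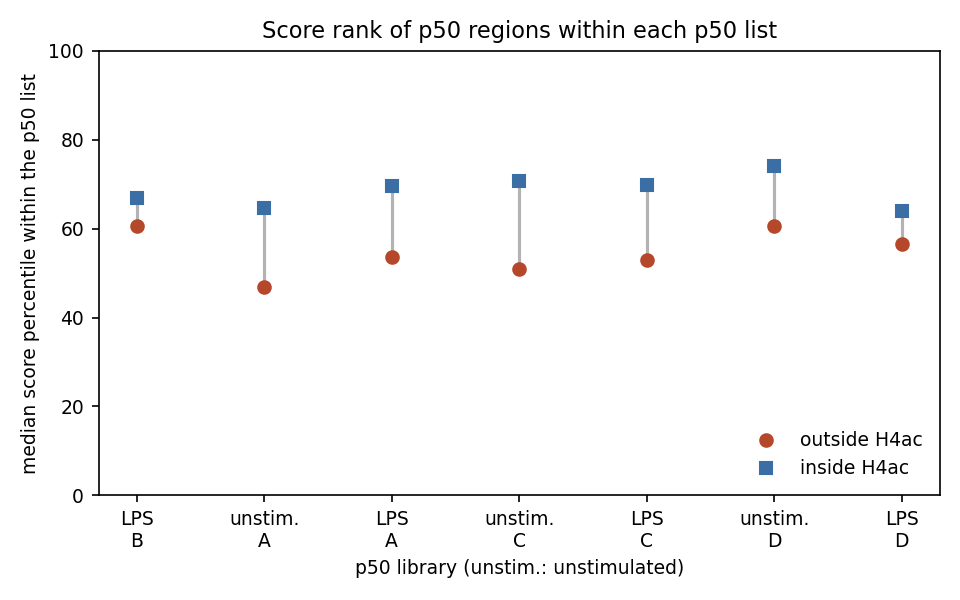
Median score percentile (y axis, 0 to 100, where 100 is the best score) of p50 regions outside (circles) and inside (squares) H4ac in each of the 7 p50 lists (x axis). The circle sits below the square in all 7 lists, with differences from -6.39 points in LPS B to -19.7 points in unstimulated C.

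No change of the share of p50 regions outside H4ac with LPS could be told from the spread between libraries. Of the regions a library held among the 997, those outside H4ac made up 88 of 293 (30.0%) in unstimulated A, 78 of 276 (28.3%) in unstimulated C and 66 of 160 (41.3%) in unstimulated D. With LPS they made up 187 of 782 (23.9%) in A, 160 of 700 (22.9%) in B, 172 of 740 (23.2%) in C and 74 of 207 (35.7%) in D. The libraries of letter D were highest in either condition, and LPS D lay above unstimulated A and C. The means were 26.4% ± 6.22 (SD, n = 4) with LPS and 33.2% ± 7.04 (SD, n = 3) without, a difference of -6.74 percentage points (exact two-sided permutation test over libraries, p = 0.343, where 0.0571 is the smallest possible, adjusted p = 0.411). Within letters the difference was -6.12 for A, -5.02 for C and -5.50 for D, lower with LPS in 3 of 3. The test over libraries did not pair the letters, so the height of letter D was part of its spread. A paired test over 3 pairs cannot give p below 0.25. The direction turned with the width limit of p50 and H4ac at 1 kb, where the difference between conditions was 2.25 points (exact p = 0.229). Letters A and C carry the same date in their titles and D carries another. B was made with LPS only and carries a date of its own. The D lists and the unstimulated lists were also the shorter ones, with 317 to 437 regions up to 10 kb against 1096 to 1292 in LPS A, B and C. With all 7 lists shortened to the best-scored regions, as many as the shortest list has, the difference (an alternative added after the data were seen) was -6.07 points (exact p = 0.343).

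**Figure D3:**
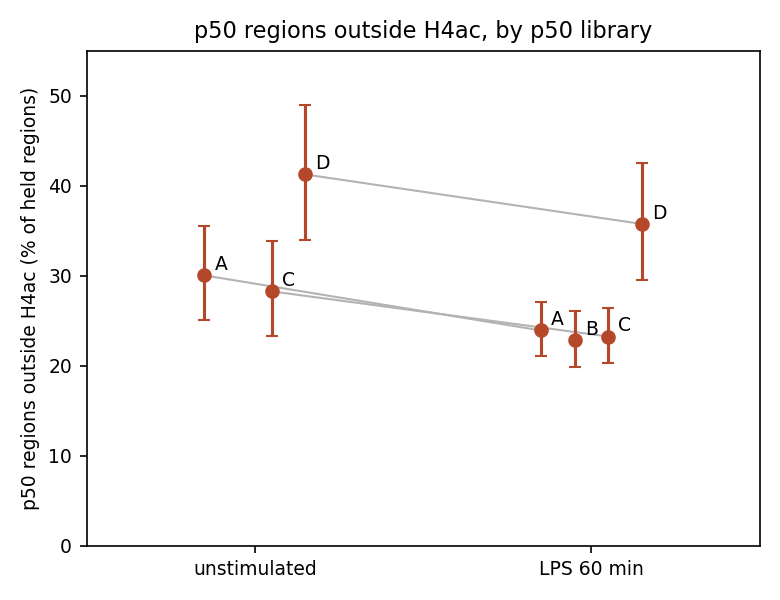
Share of the p50 regions of at least 2 lists held by each library that lay outside H4ac (y axis, %, with 95% Wilson intervals that cover counting error over regions only), for unstimulated and LPS 60 min libraries (x axis). Letters name the libraries and lines join the same letter; the 2 libraries of letter D lie highest, at 41.3% and 35.7%.

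By the conditions that held them, 145 of the 291 members were in lists of both conditions, 135 in LPS lists only and 11 in unstimulated lists only. Of the 145, 59 were in 1 LPS list and 1 unstimulated list, against 26 of 269 inside H4ac. Many of the 59 were held by unstimulated D and LPS D alone, whose titles share a date. These members also enter the counts held by an unstimulated list below. A region was called gained when it was in 3 or 4 of the LPS lists and absent without LPS, and lost when it was in 2 or 3 of the unstimulated lists and absent with LPS. Of the members, 52 were gained (17.9%, 95% Wilson interval 13.9 to 22.7), beside 23.9% of all 997 regions and 186 of 706 (26.3%) inside H4ac. Of the members, 11 were lost (3.78%), beside 1.6% of all 997 regions and 5 of 706 (0.708%) inside. The gained share was below and the lost share above that of all regions, with no test of either. Only 4 gained members were held by all 4 LPS lists, since LPS D held 9 of the 52, and without LPS A, B or C the count was 5, 7 or 6, because the rule then needs every remaining LPS list. The gained members had a median of the mean percentile of 66.0 and lay a median of 12245 bp from H4ac. The lost members ranked lower, at 24.9, and lay a median of 128870 bp away. Their number was 2 to 17 with 1 p50 library left out, 2 without unstimulated A and 17 without LPS D. List length differed by condition: the unstimulated lists held 342 to 437 regions up to 10 kb, LPS D 317, and LPS A, B and C 1096 to 1292. All 7 lists were also cut to the length of the shortest, an alternative added after the data were seen. Then 12 of 128 members were gained and 10 lost, against 56 and 19 of 312 regions inside H4ac. The part of list length in the calls was not tested.

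Among the gained members, chr11:67905501-67905680 ranked best, at percentiles 94.7, 93.2 and 95.4 in LPS A, B and C, and was absent from LPS D and from the 3 unstimulated lists. It lay 250 bp from an H4ac region and in no list of another target. The next was chr4:63089211-63090880, at 88.8, 91.9 and 90.9 in the same libraries, likewise in no list of another target and 3460 bp from H4ac. The region chr5:148518461-148519220 was at 89.2, 91.7 and 87.8 and also in ATF3 list A at 240 min. A pair of the 5 best gained regions lay in H3K27me3 regions. Of this pair, chr7:53634461-53634610 was covered by narrow H3K27me3 regions of 4.36 kb in unstimulated cells and 6.01 kb in the library titled 60 min with a 7 h delay, and chr7:88298491-88300070 by a region of 98.97 kb in unstimulated cells. The latter was held by all 4 LPS lists, at 89.9, 97.0, 97.7 and 54.9 in A, B, C and D.

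Pol II was listed at far fewer members than at p50 regions inside H4ac, in every Pol II library. The share of members touched by a Pol II region up to 100 kb wide was 5.50% in unstimulated cells, 7.22% and 8.59% at 60 min (A and B), 7.22% at 120 min, 6.19% and 6.87% at 240 min (A and B) and 4.47% at 360 min. Inside H4ac the same lists touched 29.0%, 39.0% and 42.1%, 28.8%, 28.3% and 34.1%, and 18.1%. The ranges do not overlap, with means of 6.58% ± 1.34 outside and 31.3% ± 7.92 inside (SD over 7 libraries). The difference was -24.8 percentage points, lower outside in 7 of 7 libraries (exact two-sided sign-flip permutation test, p = 0.0156, the smallest possible, adjusted p = 0.0469). Every list was read against the same 291 and 706 regions, so the test asks whether the lists share a direction. The difference stayed below 0 with p at or under 0.0313 under all 35 alternatives tried, from -27.3 to -4.80 points, the latter with the width limit of p50 and H4ac at 1 kb, and it was -20.7 points among regions up to 500 bp wide.

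Any of the 7 Pol II lists touched 50 of the 291 members (17.2%), and 4 members were in all 7. The widest of these 4 was chr8:87499991-87509980, 9990 bp wide and held by 6 p50 lists, at percentiles 73.8 to 92.3. It also lay in 2 p65 lists (letter X, 60 and 120 min), in ATF3 list A and in H4ac regions of 10 to 100 kb in all 8 libraries, so its place outside H4ac rests on the width limit. The region chr6:72502751-72502950 was gained with LPS, in all 7 Pol II lists and in 1 ATF3 list, and began 70 bp from H4ac. Another 32 members were in Pol II lists and in no list of p65, ATF3 or H3K27me3, at a median of 7940 bp from narrow H4ac. Of these, 24 (75%) were in LPS lists only, beside 46.4% of all 291 members. An H4ac region of 10 to 100 kb touched 19 (59.4%). Among the 277 regions inside H4ac with the same other targets, 185 (66.8%) were in LPS lists only and 239 (86.3%) touched such an H4ac region.

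At the width limits used, H3K27me3 was listed more often at members than at p50 regions inside H4ac. The share of members touched was 11.0% in unstimulated cells, 8.25% at 120 min, 11.0% at 240 min, 13.4% at 480 min and 13.4% in the library titled 60 min with a 7 h delay. Inside H4ac it was 6.37%, 6.37%, 5.52%, 7.08% and 5.24%. The means were 11.4% ± 2.14 and 6.12% ± 0.739 (SD over 5 libraries), a difference of 5.29 points, higher outside in 5 of 5 (exact two-sided sign-flip permutation test, p = 0.0625, the smallest 5 libraries allow, adjusted p = 0.125). The design thus could not reach 0.05. The difference rested on wide H3K27me3 regions: those touching members had a median width of 42745 bp, and with H3K27me3 limited to 10 kb the difference was -0.755 points. It was also below 0 with the p50 and H4ac limit at 1 kb (-3.18) or with none (-8.00). Each of these reversed differences had exact p = 0.0625 by the same sign-flip test, so the libraries shared that direction as fully as the main one. The 1 kb limit drops most H4ac regions, as those up to 10 kb had median widths of 1240 to 1480 bp by list.

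At least 1 H3K27me3 list touched 60 members (20.6%), and 16 members were in all 5. All 6 members held by all 7 p50 lists were among the 60, and none of the 6 was in a p65 or ATF3 list. Inside H4ac, 6 of the 38 regions of all 7 p50 lists (15.8%) touched H3K27me3. These 6 members have the most repeated p50 signal outside H4ac, so their values are given in full or by range.

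The best ranked of the 6 was chr5:115637791-115638000, at percentiles 95.8, 92.0 and 95.0 in unstimulated A, C and D and 98.7, 96.9, 92.0 and 89.9 in LPS A, B, C and D. It ranked high in either condition. It lay within H3K27me3 regions of 65.32 to 69.5 kb in all 5 libraries, 26860 bp from narrow H4ac, and in H4ac regions wider than 100 kb in all 8. The region chr14:56007011-56011650 was at 93.0, 94.1 and 74.3 unstimulated and at 95.5, 98.2, 97.8 and 94.0 with LPS. Its H3K27me3 regions, of 58.61 and 59.29 kb, were in the 2 latest libraries only. It lay 85640 bp from narrow H4ac and touched H4ac regions wider than 100 kb in 2 lists. The region chr10:83856931-83865080 was at 93.8, 93.6 and 95.9 unstimulated and at 98.0, 98.9, 95.7 and 21.8 with LPS, so that LPS D alone was low. H3K27me3 regions of 70.84 to 98.76 kb touched it in all 5 libraries and covered all of it in 4. It lay 38440 bp from narrow H4ac and touched H4ac regions of 10 to 100 kb in 2 lists and wider ones in 3.

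The other three each ranked low in at least 1 library of letter D. The region chr8:13964481-13964650 was at 79.6 to 85.4 in unstimulated A and C, 82.3 to 91.5 with LPS and 34.2 in unstimulated D, lay in H3K27me3 regions of 63.15 to 66.37 kb in all 5 libraries and touched no H4ac region of any width. The region chr2:129855581-129855880 was at 72.1 to 86.1 in libraries A, B and C but at 7.89 in unstimulated D and 30.6 in LPS D. It lay in 2 H3K27me3 regions of 93.3 and 93.81 kb, 17960 bp from narrow H4ac, and touched H4ac wider than 100 kb in 1 list. The region chr2:28403341-28403520 was at 79.4, 88.4 and 88.4 in LPS A, B and C, at 23.4 and 60.0 in unstimulated A and C and at 24.0 and 20.2 in the D libraries. H3K27me3 regions covered it in 4 libraries and Pol II regions in 2, at 120 and 240 min (A), which makes it the only 1 of the 6 with Pol II. It lay 6720 bp from narrow H4ac and touched H4ac regions wider than 100 kb in 3 lists.

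Of the 4 further members that the same order names, each in 6 p50 lists, chr4:47262971-47264250 lay in 1 H3K27me3 region of 83.56 kb. The regions chr7:91738571-91742910 and chr6:119991371-119992780 were in no list of another target and lay 230 and 1020 bp from H4ac. The fourth, on chromosome 8 with all 7 Pol II lists, is described above. By comparison, the best ranked regions inside H4ac differed among themselves: chr8:114244551-114250430 had H4ac in 2 lists and H3K27me3 in 4, chr5:31393611-31398120 had H4ac in 1 and H3K27me3 in 5, and chr7:134622151-134624210 had H4ac in 6 and Pol II in all 7.

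**Figure D4:**
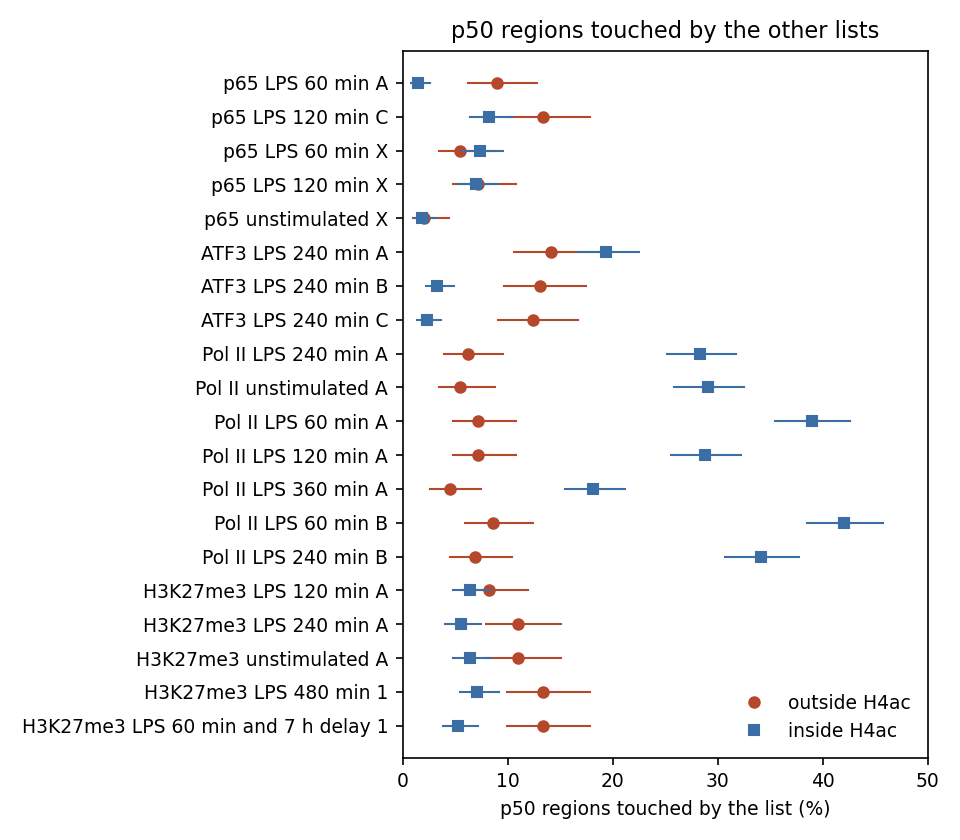
Share of p50 regions outside (circles) and inside (squares) H4ac touched by each of the 20 lists of p65, ATF3, Pol II and H3K27me3 (x axis, %, with 95% Wilson intervals that cover counting error over regions only; y axis, library). The circles lie below the squares in all 7 Pol II libraries and above them in all 5 H3K27me3 libraries, while p65 and ATF3 libraries go either way.

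p65 and ATF3, the partner of p50 in the activating dimer and an LPS-induced repressor of the same response, did not share a direction across their lists. The p65 lists touched 8.93% of members against 1.42% inside H4ac (60 min, A), 13.4% against 8.22% (120 min, C), 5.50% against 7.37% (60 min, X), 7.22% against 6.94% (120 min, X) and 2.06% against 1.84% (unstimulated, X). The mean difference was 2.27 points (exact two-sided sign-flip permutation test over 5 libraries, p = 0.3125, adjusted p = 0.411). The ATF3 lists, all at 240 min, touched 14.1% against 19.4% (A), 13.1% against 3.26% (B) and 12.4% against 2.27% (C), a mean difference of 4.86 points (exact two-sided sign-flip permutation test over 3 libraries, p = 0.5, where 0.25 is the smallest possible, adjusted p = 0.5). With the 1 kb limit the p65 and ATF3 differences were -3.65 and -0.238 points, and with no width limit the p65 difference was -1.94.

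The p65 and ATF3 lists could be divided by the size of the difference between members and regions inside H4ac. It was 5.19 to 10.1 points in p65 A and C and ATF3 B and C, and -5.32 to 0.276 points in the rest. At least 1 of p65 A, p65 C, ATF3 B and ATF3 C touched 74 members, against 88 of the 706 regions inside. No other p65 or ATF3 list touched 49 of the 74, against 33 of the 88 inside. The division was made after seeing these values and carries no test. At the members, p65 list A shared 18 regions with ATF3 list C (69.2% of the 26 in the p65 list and 50.0% of the 36 in the ATF3 list), 13 with p65 list C (50.0% of its own 26 and 33.3% of the 39 of C), and none with any p65 list of letter X. The 2 p65 lists of letter X after LPS shared 13 (81.3% of 16 at 60 min and 61.9% of 21 at 120 min). Lists also overlapped across the division. With p65 list C, the X lists at 60 and 120 min shared 5 of their 16 and 7 of their 21, and ATF3 list A shared 12. ATF3 list B shared 14 with ATF3 list A. These overlaps are descriptions of the lists at the members.

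By the first of p65 or ATF3, H3K27me3 and Pol II found at them, 99 members (34.0%) were in p65 or ATF3 lists, 41 (14.1%) in H3K27me3 lists, 32 (11.0%) in Pol II lists and 119 (40.9%) in p50 lists alone. Inside H4ac the counts were 203, 40, 277 and 186 of 706. Of the 99 members in p65 or ATF3 lists, 80 (80.8%) were held by an unstimulated p50 list, against 76 of the other 192 (39.6%). Inside H4ac these shares were 103 of 203 (50.7%) and 171 of 503 (34.0%). The 99 held 6 of the 52 gained members (6.06% of the 99) and 9 of the 11 lost members. Inside H4ac, 52 of the 203 were gained (25.6%) and 4 were lost. Over all 997 regions, 23.9% were gained and 1.6% lost. The 99 lay a median of 55620 bp from H4ac. Of the 192, 46 were gained (24.0%), close to the 23.9% of all 997 regions. Of the 119 in p50 lists alone, 29 were gained, against 56 of the 186 such regions inside H4ac. The 119 lay a median of 10650 bp from H4ac.

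The make-up also differed by p50 library. Members in p65 or ATF3 lists made up 47.7%, 43.6% and 62.1% of those held by unstimulated A, C and D and 17.6%, 18.8%, 19.2% and 60.8% of those held by LPS A, B, C and D. LPS D thus lay with the unstimulated libraries, nearest to unstimulated D, whose title has the same date. Members in p50 lists alone made up 29.5%, 33.3% and 22.7% unstimulated and 48.1%, 50.0%, 48.3% and 25.7% with LPS. Inside H4ac the share in p65 or ATF3 lists ran from 27.1% to 41.5% over the 7 libraries, a narrower range. List length moved with these shares, as given above, and its part in them was not tested.

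**Figure D5:**
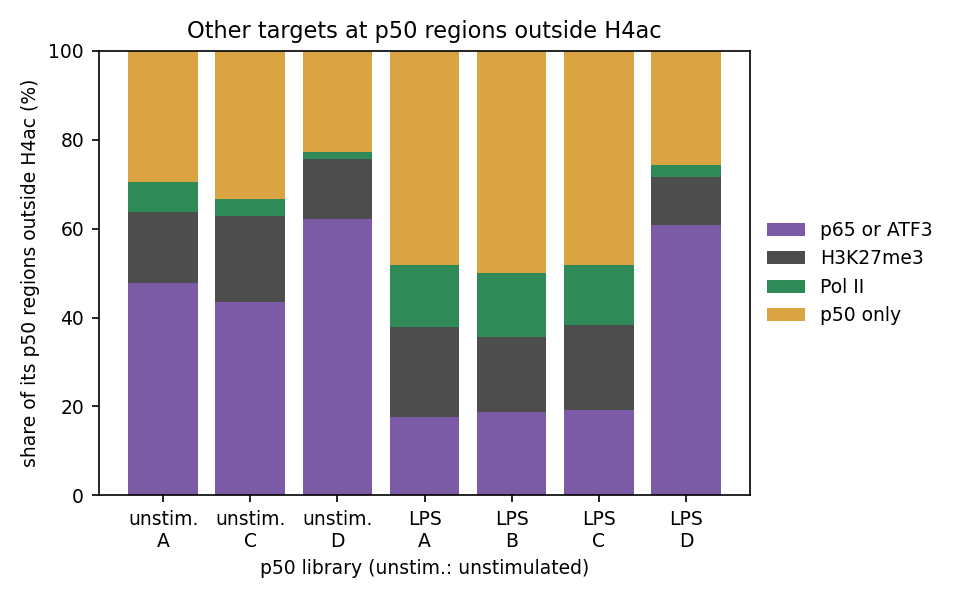
Share of the p50 regions outside H4ac held by each p50 library (x axis) that fell in lists of p65 or ATF3, of H3K27me3, of Pol II, or of p50 alone, taken in that order (y axis, %, stacked to 100). Bars of p65 or ATF3 reach 43.6% to 62.1% in the 3 unstimulated libraries and in LPS D, and 17.6% to 19.2% in LPS A, B and C.

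Each of the 3 best ranked lost members was in 2 of the 3 unstimulated lists. The region chr13:47678691-47680880 was at percentiles 57.1 and 95.6 in unstimulated A and D, and lay in p65 lists A and C and in ATF3 lists B and C, 349090 bp from H4ac. The region chr17:39982741-39982890 was at 52.7 and 50.5 in unstimulated A and C, in no list of another target and 30 bp from H4ac. The region chr13:46760831-46761090 was at 20.02 and 62.9 in unstimulated A and D, in p65 list A and in ATF3 lists A and C.

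By position, 48 of the 291 members (16.5%) lay within 100 kb of another member, in 15 clusters, against 191 of 706 (27.1%) inside H4ac, in 73. The largest cluster outside H4ac, chr11:3067291-3100060, held 12 members near the start of its chromosome, 1190 to 7300 bp from H4ac. All 12 were in p65 or ATF3 lists, 10 were held by an unstimulated list and none was gained. The p50 libraries held 8, 8 and 2 of them (unstimulated A, C and D) and 2, 8, 3 and 5 (LPS A, B, C and D). Some of the 12 abutted one another, such as chr11:3081201-3084030 and chr11:3084031-3085520, and were counted as separate members. Why so many lists met at this stretch was not tested. An overlapping stretch held the largest cluster of regions inside H4ac, chr11:3002331-3094210, with 18 regions, all 18 in p65 or ATF3 lists, 17 held by an unstimulated list and none gained, so these traits are not particular to the members. The next cluster of members, chr9:3000691-3026990, held 7 members, also near the start of its chromosome, 307790 to 333900 bp from H4ac, 6 of them in p65 or ATF3 lists and all 7 held by an unstimulated list. In all, 30 members (10.3%) began below 4 Mb, against 28 of 706 (3.97%) inside H4ac.

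The share of p50 regions outside H4ac also varied by chromosome. It was highest on chromosome 13 (18 of 34, 52.9%), Y (5 of 10, 50.0%), 17 (25 of 58, 43.1%) and 6 (18 of 42, 42.9%), and lowest on 19 (4 of 26, 15.4%) and 7 (13 of 82, 15.9%). On Y only 3 of the 8 H4ac lists held any region up to 10 kb. The mice were female, so regions listed on Y cannot be taken as p50 binding on that chromosome. Where their signal came from was not tested. These are counts over regions, with no test. Several of the members on chromosome 17 were held by unstimulated D and LPS D alone.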

How the data were processed

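Each of the 35 libraries had 1 deposited region list without a header. Build mm9 is named in the submitters' processing notes; for the aligner, the caller of regions and any cutoff, a name is not given in the sources used here. The deposited score is the authors' own and served only to rank a list's regions. The lists hold no read counts, so depth is unknown; p50 lists held 324 to 1378 regions and H4ac lists 15256 to 28522. Wilson intervals cover counting error over regions only.

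The widest regions used were of 10 kb for p50, H4ac, p65 and ATF3 and of 100 kb for the broader Pol II and H3K27me3, with a minimum overlap of 1 bp. The libraries were the replicates. Shares by condition were compared by an exact permutation test, and shares or ranks outside against inside H4ac by an exact sign-flip permutation test over libraries, with Benjamini-Hochberg adjustment over 6 tests (Python 3.11.15, numpy 2.4.6, scipy 1.17.1, matplotlib 3.10.9). The code was tested on simulated lists.

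The regions named were the 10 members in the most p50 lists, ties going to the higher mean percentile, the 5 gained and 3 lost members of highest mean percentile, and the 3 regions inside H4ac that the first rule gives. The farthest member, the clusters and the member in all 7 Pol II lists on chromosome 6 were chosen after their values were seen. The members and the lists were chosen with earlier results of these data known. Genes, motifs and macrophage markers at the regions were not analysed here. The alternatives comprised other width limits, overlaps, list numbers and lists left out.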

Additional observations from a re-analysis of the deposited data

Results flagged for a closer look

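The p50 library LPS D stood apart from the other 3 LPS libraries in 4 of 8 measures checked for a far value among the 4 (gap to the nearest library over the range above Dixon's 95% critical value). Of the regions it held, 35.7% lay outside H4ac. Of its members outside H4ac, 60.8% were in p65 or ATF3 lists, 2.70% in Pol II lists but not in those of p65, ATF3 or H3K27me3, and 25.7% in p50 lists alone. Chance gives such a value in about 1 in 20 groups, and the 4 measures come from 1 library and are not independent. Without LPS D, 254 regions lay outside H4ac, 47 of them gained and 17 lost.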

How the results depend on the processing

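The number of regions outside H4ac was 774 with the width limit of p50 and H4ac at 1 kb, 71 with none, 138 with at least 3 p50 lists, 132 with the better-scored 50% of each p50 list, 192 without regions in p65 or ATF3 lists and 128 with p50 lists of equal length. The gained count was 191 at 1 kb, 2 with no limit and 27 with H4ac up to 100 kb. It was 31 with the better-scored 50%, 12 at equal length (beside 10 lost), and 5 to 60 with 1 library left out. At 1 kb the LPS difference in the share outside was 2.25 points, and the differences for p65, ATF3 and H3K27me3 were -3.65, -0.238 and -3.18; with no limit those for p65 and H3K27me3 were -1.94 and -8.00, and H3K27me3 limited to 10 kb gave -0.755. The rank difference no longer passed at 1 kb (-2.02), with 50% cover (-4.57), up to 500 bp (-3.39) and without p65 or ATF3 regions (-5.62). The cause of these changes was not tested. The Pol II difference passed under all 35 alternatives. With the letter as replicate block, the paired LPS difference was -5.55 points (exact p = 0.25, the smallest 3 pairs allow). Same-letter libraries deviated from their condition means with correlations of 0.064, 0.026 and 0.244 over the 997 regions (A, C and D). The D libraries thus deviated together, and those of A and C hardly did. These correlations are over regions and do not concern the share outside H4ac. The main test of that share did not treat the letters as pairs. The unknown depth limits what absence from a list means.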
